A study of Drosophila melanogaster with 29 samples.

Results

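DNA replication genes were examined in Drosophila S2 cells after depletion of Polycomb proteins and of dKDM2. The set held 40 listed genes, from origin recognition through helicase loading and the polymerases to nucleotide supply. A gene was measured where the probe annotation gave at least 1 probe set naming it alone, with symbols updated by gene number. This left 34 of the 40 genes, each with exactly 1 such probe set, out of 11982 genes in all. Current symbols are used, CDC45L being printed as Cdc45 and RpA-70 as RPA1. Mcm7, Orc6, geminin, RnrS, PolD1 and Top2 were not analysed here. All 34 measured genes were tested, and none lay at the lowest recorded value on any array.

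S2 cells are an established line with features of embryonic blood cells. The 29 Affymetrix Drosophila arrays comprised 14 of untreated cells (Mock) and 3 of each of 5 depletions by RNA interference. The depleted cells received double-stranded RNA (dsRNA) for 4 days against dKDM2, a histone demethylase, or against dRING, PC, PH or PSC, subunits of the Polycomb complex PRC1. Mock cells had no dsRNA at all, so exposure to dsRNA is common to the 5 depletions, and the 5 comparisons share the 14 Mock arrays. No label ties an array to a culture, although the replicates are termed biological, so a p-value measures the spread between these arrays, which may be technical.

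Replication starts where the origin recognition complex (ORC) marks DNA. Cdc6 and Cdt1 (dup in Drosophila) then load the ring-shaped MCM helicase, which Cdc45 and the GINS proteins turn into the active CMG helicase. At the fork, polymerase alpha with its primase lays primers, the clamp loader RFC places the sliding clamp PCNA, replication protein A (RPA) covers single-stranded DNA, and many of these genes are classical targets of the E2F and DREF transcription factors in flies.

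The label check passed for dRING and PC and failed for PSC. Sce, which encodes dRING, fell by 4.41 on the log2 scale after dRING depletion, and Pc fell by 2.21 after PC depletion. Psc rose by 2.36 on the arrays labelled PSC and by 2.54 to 4.45 in the other depletions, so these 3 arrays are called the arrays labelled PSC throughout. The transcripts of Kdm2, ph-d and ph-p were not analysed here, and Sce also fell after depletion of dKDM2 and PH (log2 fold changes -2.81 and -2.66). Of 10 listed markers of S2 cells, srp (10.36), Col4a1 (10.20), crq (9.25) and Pxn (9.06, each a mean log2 signal) were bright in Mock. The mean over all 10 was 6.00 to 7.73 on the Mock arrays, so the other markers were dimmer on average. On the arrays labelled PSC 4 of 10 such markers fell and 1 rose (6.51% and 9.99% of all genes), and the summed level of the 10 was 49.85 to 59.06 there against 60.02 to 77.34 in Mock. After PC depletion 3 of them rose and 0 fell (3.32% and 1.22% of all genes), after PH depletion 2 rose and 2 fell (19.6% and 15.4%), after dKDM2 depletion 1 rose and 0 fell (18.4% and 14.7%), and after dRING depletion 0 were called. In these 4 groups the summed level was 63.40 to 77.42. Arrays of replicates 1 and 2 correlated at 0.998 to 0.999 in Mock, dRING, PC and those labelled PSC, against 0.976 to 0.991 for replicates 1 and 3. RNA added as a control before labelling (poly-A spikes) read 4.65 ± 0.89 in Mock (SD, n = 14, deposited log2 values), 7.68 ± 0.95 after dKDM2 and 8.69 ± 0.25 after PH depletion (n = 3 each). Both differed from Mock (exact permutation test, two-sided, adjusted over 10 tests, p = 0.0049). For dRING, PC and the arrays labelled PSC the adjusted p was 0.597 to 0.6 in the same exact permutation test. The hybridization controls, tested alongside, read 10.09 ± 0.65 in Mock, 11.87 ± 0.72 after dKDM2 and 12.39 ± 0.35 after PH depletion. They too differed from Mock in that exact permutation test (adjusted p = 0.0074 for dKDM2 and 0.0049 for PH). In the remaining groups they did not (adjusted p = 0.6 each).

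Most replication genes that changed fell, and they fell mainly after depletion of dKDM2 and PH. After dKDM2 depletion 15 of the 34 genes fell and 4 rose (limma adjusted p under 0.05), where 14.7% of all 11677 genes tested fell and 18.4% rose. After PH depletion 22 fell and 2 rose, against 15.4% and 19.6% of all genes. On the arrays labelled PSC 8 fell and 0 rose, against 6.51% and 9.99%. After PC depletion 2 fell and 0 rose (1.22% and 3.32%), and after dRING depletion 0 fell and 1 rose (0.736% and 2.04%). At an unadjusted p under 0.05 limma gave 1 rise on the arrays labelled PSC, 1 rise after PC depletion and 5 falls after dRING depletion, where the adjusted counts were 0. These unadjusted counts have no share of all genes beside them and do not show whether the members stand out. Of the 5550 genes with a mean of at least 4, the range in which all 34 members lie, 27.7% fell after dKDM2, 27.6% after PH, 13.4% on the arrays labelled PSC, 2.52% after PC and 1.53% after dRING depletion. In bulk RNA, fewer cells copying their DNA and less RNA per cell cannot be told apart.

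**Figure D1:**
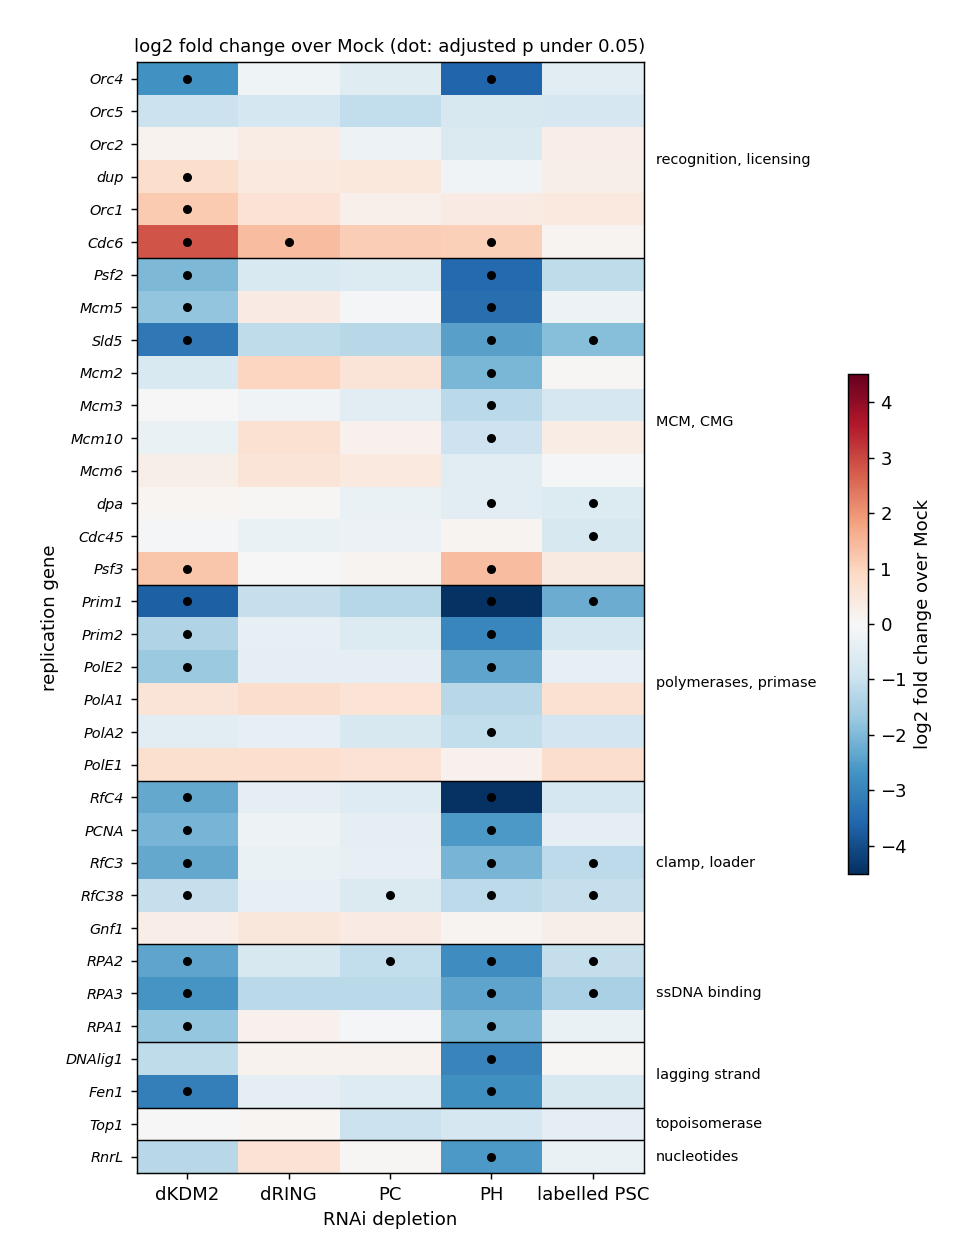
Log2 fold change over Mock of the 34 replication genes (rows, grouped by step of replication) in the 5 depletions (columns), from group means of 14 Mock arrays and 3 arrays per depletion. A dot marks a limma adjusted p under 0.05, and dots sit mostly on blue (lower) cells of the dKDM2 and PH columns, 15 and 22 of 34.

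The median log2 fold change of the 34 genes was -0.99 after dKDM2, -1.64 after PH, -0.41 on the arrays labelled PSC, -0.33 after PC and -0.07 after dRING depletion. The medians of the 5550 genes with a mean of at least 4 lay between -0.02 and 0.04. Over the arrays, the median level of the 34 genes was 7.80 to 8.53 in Mock, 7.41 to 7.61 after dKDM2 and 6.53 to 7.37 after PH depletion, so all 6 of these depleted arrays lay below all 14 Mock arrays. The arrays of the other depletions (7.67 to 8.30) overlapped Mock. Altogether 23 genes fell in at least 1 depletion, 4 rose in at least 1 (Cdc6, Psf3, Orc1 and dup), and 7 were called in none (Orc2, Orc5, Mcm6, Gnf1, Top1, PolA1 and PolE1). Of these 7, Gnf1 alone was called under none of the alternative settings either. The counts of 23, 4 and 7 have no share of all genes beside them and do not show whether the members stand out.

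The called falls kept their direction on the deposited values and with median centring, and the rises stayed above 0, but on the deposited values Cdc6 after dKDM2 depletion was the only rise still called. Upper quartiles of the deposited values were lower after dKDM2 and PH depletion (6.10 and 5.90) than in Mock (6.86), and quantile normalization removes this difference. On the deposited values 21 genes fell and 1 rose after dKDM2 depletion (19.5% and 16.3% of all genes), and 29 fell and 0 rose after PH depletion (21.9% and 19.9%). There the median over the members was -1.72 and -2.48, beside -0.58 and -0.75 over the genes with a mean of at least 4. Centring each array on its median moved the median of all genes by 0.76 and 0.97. It gave 18 falls and 5 rises after dKDM2 depletion (13.2% and 66.9% of all genes) and 21 falls and 2 rises after PH depletion (12% and 67.9%). With the levels of the spikes and of the hybridization controls as covariates, 12 genes fell and 6 rose after dKDM2 depletion (11.9% and 12.7% of all genes). After PH depletion 11 fell and 2 rose (9.62% and 9.49%). The member medians were then -0.17 and -0.98. This fit ended 6 calls after dKDM2 depletion (Orc1, Mcm5, Psf2, Psf3, Sld5 and RfC4) and 13 after PH depletion (Mcm2, Mcm3, dpa, Mcm5, Mcm10, Psf3, Sld5, PCNA, RfC4, Fen1, DNAlig1, PolA2 and RnrL), and it added 5 and 2. The spike levels after dKDM2 (6.64 to 8.50) and PH depletion (8.43 to 8.93) all lay above those of Mock (2.97 to 6.61). The fit therefore separates group and spike level poorly, and a call can end in it through lost precision. The calls kept under every setting tried were, for dKDM2, those of Orc4, Cdc6, PCNA, RfC3, RfC38, RPA1, RPA2, RPA3, Fen1, Prim1 and PolE2, and, for PH, those of Orc4, Psf2, RfC3, RfC38, RPA1, RPA2, RPA3, Prim1, Prim2 and PolE2.

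**Figure D2:**
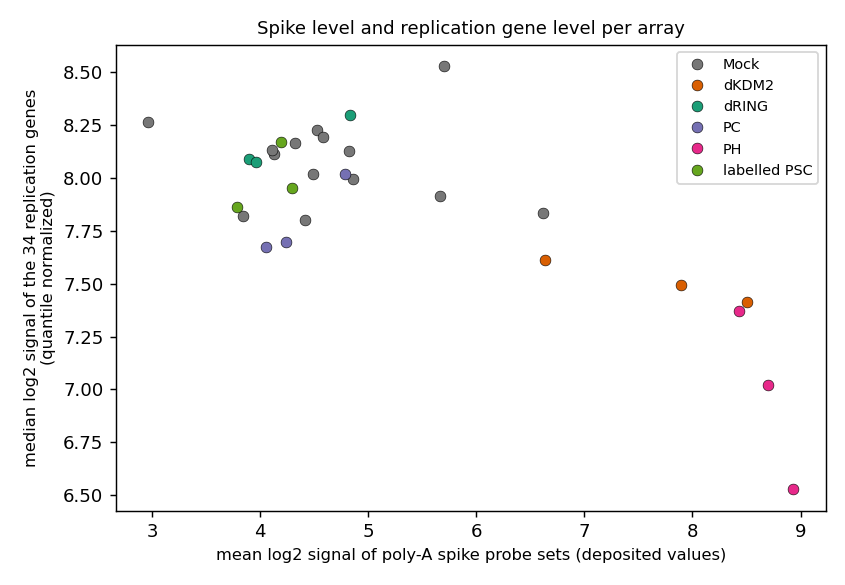
Each point is 1 of the 29 arrays, with the mean log2 signal of the poly-A spike probe sets (deposited values) on the x axis and the median quantile normalized log2 signal of the 34 replication genes on the y axis. The dKDM2 and PH arrays have the highest spike levels and the lowest replication gene levels, and the highest Mock spike level (6.61) lies next to the lowest of dKDM2 (6.64).

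Among the 6 genes of origin recognition and licensing, the loading factor Cdc6 rose and the ORC subunit Orc4 fell. Cdc6 read 3.51 to 5.67 in Mock with a median of 4.73 on the log2 scale. It read 7.81, 7.46 and 7.29 after dKDM2 depletion, above every Mock array, and rose 7.08-fold (2.82 on the log2 scale, SE 0.33, limma adjusted p = 3.6e-07). After PH depletion the 3 arrays read 5.43, 6.22 and 5.70, overlapping Mock, and Cdc6 rose 2.13-fold (1.09, SE 0.33, limma adjusted p = 0.012). That call ended on the deposited values (log2 fold change 0.15) and without PH replicate 2 (0.87, limma adjusted p = 0.105).

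After dRING depletion Cdc6 read 5.93, 6.26 and 6.01, all above Mock, and rose 2.59-fold (1.37, SE 0.33, limma adjusted p = 0.0228). It was the only replication gene called there, and the call ended when any of the 3 dRING arrays was left out, and on the deposited values and with centring. The PC arrays read 5.96, 5.98 and 5.45 (log2 fold change 1.10, limma adjusted p = 0.0549), and the arrays labelled PSC read 5.12, 5.14 and 4.22, inside the Mock range (0.13). Several alternatives called the PC change higher, among them the filter on dim genes (limma adjusted p = 0.0292) and the covariates (1.00, limma adjusted p = 0.0452).

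Orc4, an ATPase-fold subunit of ORC, went the other way. It read 6.21 to 8.08 in Mock with a median of 6.95, 3.52, 3.34 and 5.99 after dKDM2 and 2.33, 2.83 and 5.26 after PH depletion. All 6 depleted arrays lay below Mock, and for dKDM2 Orc4 fell by 2.74 (SE 0.48, limma adjusted p = 7.89e-05) and for PH it fell by 3.55 (SE 0.48, limma adjusted p = 2.79e-06). The third replicate was the highest in both groups. The lowest PH value sits next to the lowest recorded value of the arrays, 2.27.

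Orc1, the largest ORC subunit, and dup, the Cdt1 protein, rose after dKDM2 depletion, by 1.18 and 0.80. For both genes the dKDM2 arrays overlapped Mock, and both calls ended on the deposited values (0.60 and 0.29) and without dKDM2 replicate 1. With the controls as covariates the Orc1 call ended (0.56) and that of dup was kept (1.66). Orc2 and Orc5, which complete the measured part of ORC, were called in no depletion (log2 fold changes -0.65 to 0.32 and -1.09 to -0.71). Orc5 was below 0 in all 5 comparisons. On the deposited values Orc5 was called lower after dKDM2 and PH depletion (-1.77 and -1.68), and so it was with the controls as covariates (-2.06 and -2.15). Orc2 was called lower after PH depletion on the deposited values (-1.64).

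In the 10 genes of the MCM and CMG helicase, the 3 GINS genes moved in different directions. Psf3 rose after dKDM2 depletion, where the arrays read 7.53, 8.12 and 8.02 against 5.76 to 7.45 in Mock (median 6.67), by 1.24 (2.36-fold, SE 0.33, limma adjusted p = 0.00431). After PH depletion it read 7.72, 8.08 and 8.31 and rose by 1.39 (2.62-fold, SE 0.33, limma adjusted p = 0.00158). Both groups lay above all Mock arrays. Both calls ended on the deposited values, where the changes were 0.52 and 0.55, and with the controls as covariates (0.53 and 0.48). The arrays of dRING (6.09, 6.41, 7.47), of PC (6.50, 6.54, 7.27) and those labelled PSC (6.97, 6.83, 7.32) overlapped Mock, with log2 fold changes of 0.01, 0.12 and 0.39.

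Sld5, another GINS subunit, read 5.44 to 7.43 in Mock with a median of 6.65. It read 2.69, 3.07 and 4.64 after dKDM2 depletion and fell by 3.20 (9.20-fold, SE 0.52, limma adjusted p = 2.72e-05). After PH depletion it read 2.53, 4.33 and 5.80, the third array within the Mock range, and fell by 2.45 (5.47-fold, SE 0.52, limma adjusted p = 0.000562). The PH call ended with Mock replicates 1 to 3 as the only controls (-2.21, limma adjusted p = 0.0537) and with the controls as covariates (-0.22, limma adjusted p = 0.929), and the dKDM2 call ended with those covariates too (-1.49, limma adjusted p = 0.142). The arrays labelled PSC read 5.45, 5.39 and 3.43, and Sld5 fell by 1.91 there (SE 0.52, limma adjusted p = 0.0108). Without the third of those arrays the change was -1.25 (limma adjusted p = 0.175), and with the replicate number as a block -1.67 (limma adjusted p = 0.276). This replicate block was fitted with Mock replicates 1 to 3 as the only Mock arrays, here and below. Those controls without the block gave the same change (limma adjusted p = 0.277). The dRING arrays (5.76, 5.85 and 5.00) and PC arrays (5.54, 5.93 and 4.75) gave -1.13 and -1.26, which were not called. With the controls as covariates the PC change was called lower (-1.46, limma adjusted p = 0.0457).

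Psf2, the third measured GINS gene, read 5.39 to 8.23 in Mock with a median of 7.39. It read 5.04, 5.05 and 5.61 after dKDM2 and 3.45, 2.72 and 5.06 after PH depletion, and fell by 2.02 (4.06-fold, SE 0.44, limma adjusted p = 0.000736) and 3.51 (11.4-fold, SE 0.44, limma adjusted p = 8.42e-07). The PH arrays lay below all Mock arrays and the dKDM2 arrays overlapped them, and with the controls as covariates the dKDM2 call ended (-1.52, limma adjusted p = 0.0985). The other 9 depleted arrays read 5.38 to 6.90, inside or at the edge of the Mock range, and the changes (-0.70, -0.63 and -1.15) were not called. The change on the arrays labelled PSC was called lower with the filter on dim genes (limma adjusted p = 0.0352). It was also called lower with the covariates (-1.27, limma adjusted p = 0.0304) and without Mock replicate 5 (-1.30, limma adjusted p = 0.0149).

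The MCM subunits were not called together. Mcm5 fell after dKDM2 depletion by 1.78 (3.43-fold, SE 0.46, limma adjusted p = 0.00405), from 7.54 to 9.72 in Mock (median 8.84) to 6.67, 6.76 and 7.72. After PH depletion it read 3.45, 5.71 and 7.08, below all Mock arrays, and fell by 3.41 (10.6-fold, SE 0.46, limma adjusted p = 2.88e-06). With the controls as covariates both Mcm5 calls ended, the dKDM2 value changing sign (0.17, SE 0.59, limma adjusted p = 0.941) and the PH value moving to -0.84 (SE 0.72, limma adjusted p = 0.495). Mcm2, Mcm3 and dpa (Mcm4) fell after PH depletion by 2.05, 1.20 and 0.47, and none of them was called after dKDM2 depletion (-0.67, -0.03 and 0.09). With the covariates these 3 PH calls ended as well, and Mcm2 changed sign (0.81), while Mcm2 after dKDM2 depletion was at 1.49 (limma adjusted p = 0.0502). With Mock replicates 1 to 3 as the only controls Mcm2 was called lower after dKDM2 depletion (-1.80, limma adjusted p = 0.0014). The PH call of Mcm3 ended without PH replicate 1 and that of dpa without PH replicate 1 or 2 and with centring (-0.20). On the deposited values dpa was called lower after dKDM2 depletion (-0.45). On the arrays labelled PSC dpa fell by 0.60 (limma adjusted p = 0.0164), a call that ended without replicate 1 or 2 of that group and with centring. Mcm6 had log2 fold changes of -0.47 to 0.59, none of them called. With Mock replicates 1 to 3 as the only controls Mcm6 was called lower on the arrays labelled PSC (-0.70). This held with the replicate block (limma adjusted p = 0.00822) and without it (limma adjusted p = 0.0356). The same controls without the block called Mcm6 lower after PH depletion (-1.12, limma adjusted p = 0.000755). On the deposited values Mcm6 was called lower after PH depletion (-1.15), and with the covariates it was called higher after dKDM2 depletion (1.35, limma adjusted p = 0.0107).

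Cdc45, which joins MCM and GINS in the active helicase, fell on the arrays labelled PSC by 0.72 (limma adjusted p = 0.0418) and ranged from -0.29 to 0.12 elsewhere. That call ended under 13 of 25 alternative settings. Among them were Mock replicates 1 to 3 as the only controls (-0.62), with the replicate block (limma adjusted p = 0.149) and without it (limma adjusted p = 0.356). It also ended without replicate 3 of every group, a setting added later (-0.50, limma adjusted p = 0.195). On the deposited values Cdc45 was called lower after PH depletion (-0.87). Mcm10, which helps to activate the helicase, fell after PH depletion by 0.91 (SE 0.22, limma adjusted p = 0.00197), with all PH arrays below Mock. With the controls as covariates that call ended (-0.29), and on the deposited values Mcm10 was called lower after dKDM2 depletion too (-1.005).

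**Figure D3:**
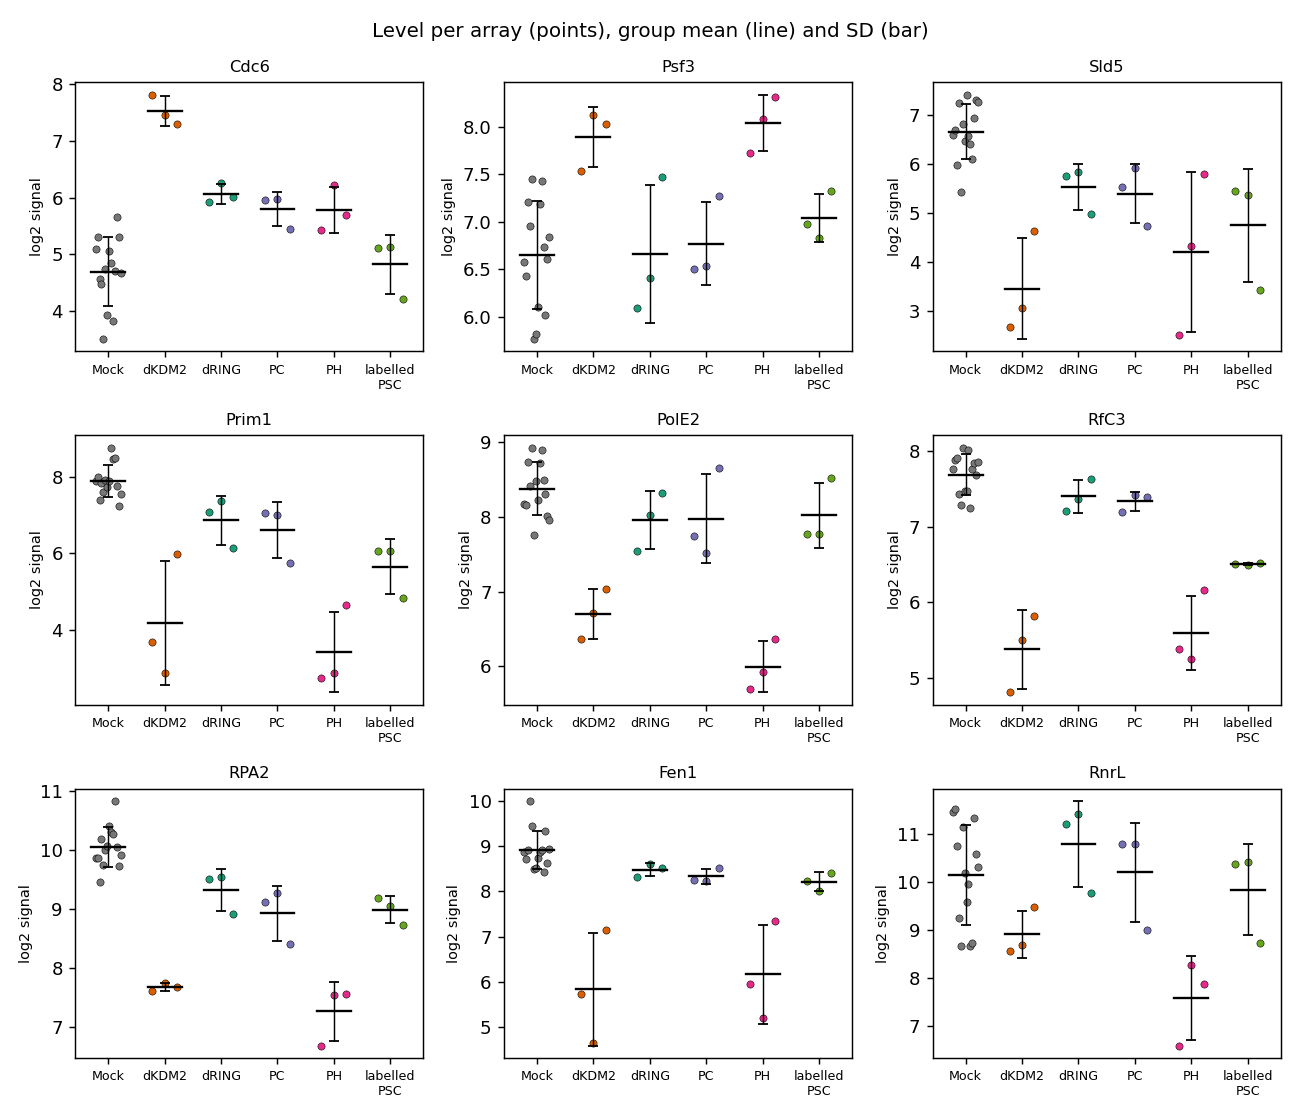
Log2 signal (quantile normalized, y axis) of 9 replication genes on each of the 29 arrays, by group (x axis), with the group mean as a line and the SD as a bar. Cdc6 and Psf3 stand above Mock after dKDM2 depletion, while Prim1, RfC3, RPA2, Fen1 and PolE2 stand below all 14 Mock arrays after both dKDM2 and PH depletion.

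Of the 6 polymerase and primase genes, the primase subunit Prim1 fell after dKDM2 and PH depletion and on the arrays labelled PSC. Prim1, which synthesises the RNA primer, read 7.23 to 8.75 in Mock with a median of 7.86. It read 3.70, 2.89 and 6.00 after dKDM2 depletion and fell by 3.69 (12.9-fold, SE 0.46, limma adjusted p = 1.07e-06). After PH depletion it read 2.77, 2.90 and 4.65 and fell by 4.45 (21.9-fold, SE 0.46, limma adjusted p = 7.87e-08). The PH fall was about as large as that of the clamp loader subunit RfC4 (4.44), and RfC4 fell further on the deposited values, where RfC4 was at -4.99 and Prim1 at -4.47. All 6 arrays lay below Mock, with the third of each group the highest. The arrays labelled PSC, at 6.07, 6.07 and 4.84, lay below Mock too, and Prim1 fell by 2.23 there (4.69-fold, SE 0.46, limma adjusted p = 0.0012). With Mock replicates 1 to 3 as the only controls that change was -2.10. It was not called with the replicate block (limma adjusted p = 0.129) or without it (limma adjusted p = 0.111). After dRING (7.09, 7.36, 6.14) and PC depletion (7.06, 7.00, 5.76) the changes were -1.02 and -1.28 and were not called. With the controls as covariates the PC change was called lower (-1.39, limma adjusted p = 0.0426). The 3 PC arrays all lay below Mock.

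Prim2, the other primase subunit, fell by 1.35 after dKDM2 and by 2.94 after PH depletion. It read 7.09 to 8.32 in Mock, 6.45, 6.20 and 6.29 after dKDM2 and 3.56, 6.12 and 4.48 after PH depletion, and both groups lay below Mock. The dKDM2 call ended with Mock replicates 1 to 3 as the only controls. On the arrays labelled PSC the Prim2 change of -0.77 was not called, but on the deposited values it was called lower (-0.76, limma adjusted p = 0.0310). Of the partners of primase, the catalytic subunit PolA1 was not called (log2 fold changes -1.25 to 0.79), and PolA2 fell after PH depletion by 1.11 (SE 0.32, limma adjusted p = 0.00787). The PolA2 call was lost without PH replicate 3, with Mock replicates 1 to 3 as the only controls and with the covariates (-1.48, limma adjusted p = 0.0544), and on the deposited values PolA2 was called lower after dKDM2 depletion (-1.27). On the arrays labelled PSC PolA2 was at -0.86 and was not called. Alternatives that called it lower there included the deposited values (limma adjusted p = 0.0385), the filter on dim genes (limma adjusted p = 0.0391) and the covariates (limma adjusted p = 0.0479). The alternatives called PolA1 in opposite directions. After PH depletion PolA1 was called lower on the deposited values (-2.05, limma adjusted p = 0.0467) and higher with the controls as covariates (2.95, limma adjusted p = 0.0469), which also called it higher after dKDM2 depletion (3.75, limma adjusted p = 0.00206). PolA1 varied most among the members in Mock, with an SD of 1.23 and a range of 4.39 to 8.05.

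PolE2, the second subunit of the leading-strand polymerase epsilon, read 7.75 to 8.92 in Mock with a median of 8.36. It read 6.36, 6.71 and 7.03 after dKDM2 and 5.70, 5.92 and 6.36 after PH depletion, and fell by 1.67 (3.19-fold, SE 0.25, limma adjusted p = 8.79e-06) and 2.38 (5.21-fold, SE 0.25, limma adjusted p = 7.08e-08). All 6 arrays lay below Mock. The dRING (7.54, 8.02, 8.31), PC (7.75, 7.52, 8.65) and PSC-labelled arrays (7.77, 7.77, 8.52) overlapped Mock. The catalytic subunit PolE1 had log2 fold changes of 0.20 to 0.80, none of them called. PolE1 was called higher after dKDM2 depletion with centring (0.78, limma adjusted p = 0.0322) and with the covariates (1.62, limma adjusted p = 0.0236), and lower after PH depletion with Mock replicates 1 to 3 as the only controls (-0.68, limma adjusted p = 0.023).

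In the clamp and its loader, 4 of 5 genes fell after both dKDM2 and PH depletion, and the large loader subunit Gnf1 was called nowhere (0.14 to 0.53). RfC3 read 7.25 to 8.05 in Mock (median 7.77), 4.81, 5.50 and 5.83 after dKDM2, and 5.38, 5.26 and 6.16 after PH depletion. It fell by 2.32 (4.98-fold, SE 0.19, limma adjusted p = 3.41e-09) and 2.10 (4.27-fold, SE 0.19, limma adjusted p = 1.42e-08). On the arrays labelled PSC it read 6.52, 6.50 and 6.52 and fell by 1.18 (SE 0.19, limma adjusted p = 8.9e-05). All 9 arrays lay below Mock. The dRING (7.21, 7.36, 7.63) and PC arrays (7.20, 7.42, 7.40) had changes of -0.29 and -0.36.

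RfC38 was the most even member in Mock, with an SD of 0.23 and a range of 8.66 to 9.56 (median 9.13). It read 7.92, 8.28 and 7.97 after dKDM2, 8.07, 8.03 and 7.63 after PH depletion and 7.95, 7.89 and 8.30 on the arrays labelled PSC. It fell by 1.03, 1.18 and 1.04 (SE 0.14 each), with limma adjusted p = 2.64e-06, 4.13e-07 and 6.67e-06, and all 9 arrays lay below Mock. The PC arrays, at 8.40, 8.48 and 8.40, also lay below Mock, and RfC38 fell by 0.66 there (1.58-fold, SE 0.14, limma adjusted p = 0.00515). With Mock replicates 1 to 3 as the only controls the PC change was -0.56. It was not called with the replicate block (limma adjusted p = 0.0747) or without it (limma adjusted p = 0.0877). The dRING arrays read 8.50, 8.92 and 8.71 (-0.38, not called).

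RfC4 had the widest spread among depleted arrays. It read 8.90 to 10.92 in Mock (median 10.21) and 5.61, 3.40 and 8.19 after PH depletion, and fell by 4.44 there (21.7-fold, SE 0.65, limma adjusted p = 7.38e-06). After dKDM2 depletion it read 6.74, 7.55 and 9.28, the third inside the Mock range, and fell by 2.32 (4.98-fold, SE 0.65, limma adjusted p = 0.0068). The dKDM2 call ended without replicate 1 of that group (-1.76, limma adjusted p = 0.0958), and with the controls as covariates the value changed sign (0.17). With the same covariates the PH call ended (-1.18, SE 0.98, limma adjusted p = 0.475). RfC4 was not called after dRING (10.34, 10.29, 8.57) or PC depletion (10.10, 10.15, 8.50) or on the arrays labelled PSC (9.94, 9.81, 8.41), and the third array was the lowest in each. PCNA, the clamp itself, read 10.76 to 12.36 in Mock, 9.83, 8.99 and 10.44 after dKDM2 and 8.79, 8.78 and 10.28 after PH depletion. It fell by 2.10 and 2.57 (SE 0.33 each), and all 6 arrays lay below Mock. With the covariates the PCNA change after PH depletion was -1.53 and not called (limma adjusted p = 0.0531).

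The 3 RPA genes, which encode the subunits of the single-strand binding complex, all fell after both dKDM2 and PH depletion. RPA2 read 9.45 to 10.83 in Mock (median 10.02), 7.60, 7.75 and 7.67 after dKDM2 and 6.68, 7.54 and 7.56 after PH depletion, and fell by 2.37 (5.17-fold, SE 0.22, limma adjusted p = 1.55e-08) and, after PH, fell by 2.78 (6.88-fold, SE 0.22, limma adjusted p = 1.14e-09). The PC arrays (9.11, 9.27, 8.40) and those labelled PSC (9.18, 9.05, 8.73) lay below Mock as well. RPA2 fell by 1.12 (limma adjusted p = 0.00301) and 1.06 (limma adjusted p = 0.00121) there. With Mock replicates 1 to 3 as the only controls these changes were -0.80 and -0.74. Neither was called with the replicate block (limma adjusted p = 0.127 and 0.0775) or without it (limma adjusted p = 0.232 and 0.131). The PC call also ended without PC replicate 3. The dRING arrays, at 9.51, 9.55 and 8.92, gave -0.72, which was not called. It was called lower with the controls as covariates (-0.71, limma adjusted p = 0.0181) and without Mock replicate 3 (-0.77, limma adjusted p = 0.0393).

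RPA3, the smallest subunit, fell by 2.65 after dKDM2, 2.36 after PH depletion and 1.46 on the arrays labelled PSC (SE 0.38 each), and RPA1, the largest, by 1.74 and 2.04 after dKDM2 and PH depletion (SE 0.22 each). The arrays of dKDM2 and PH lay below Mock for both genes. The RPA3 call on the arrays labelled PSC (limma adjusted p = 0.00835) ended without replicate 1 or 2 of that group. After dRING and PC depletion RPA3 was at -1.20 and -1.22, which were not called. Both were called lower with the filter on dim genes (limma adjusted p = 0.0410 and 0.0330). The PC change was also called lower with the controls as covariates (-1.07, limma adjusted p = 0.0362) and without Mock replicate 1 or 2. RPA1 was at 0.18, -0.07 and -0.29 in the other comparisons.

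In lagging-strand processing, the flap endonuclease Fen1 read 8.43 to 10.01 in Mock (median 8.88), 5.72, 4.64 and 7.13 after dKDM2 and 5.95, 5.18 and 7.35 after PH depletion. It fell by 3.09 (8.50-fold, SE 0.37, limma adjusted p = 5.64e-07) and 2.76 (6.77-fold, SE 0.37, limma adjusted p = 2.6e-06), with all 6 arrays below Mock. With the controls as covariates the PH value of Fen1 was -1.89 and not called (limma adjusted p = 0.0731). The other 9 depleted arrays read 8.00 to 8.61 and gave changes of -0.43 to -0.70, which were not called. DNAlig1, the ligase that seals the fragments, fell after PH depletion by 2.95 (7.75-fold, SE 0.49, limma adjusted p = 3.81e-05), where the arrays read 2.82, 4.29 and 6.28, and had a change of -1.15 after dKDM2 depletion that was not called (limma adjusted p = 0.0762). The PH call of DNAlig1 ended with the controls as covariates (-0.48, limma adjusted p = 0.795). The dKDM2 change of DNAlig1 was called on the deposited values (-1.90, limma adjusted p = 0.00365), with centring (-1.14, limma adjusted p = 0.0097), with the filter on dim genes and with Mock replicates 1 to 3 as the only controls (-1.98, limma adjusted p = 0.0471).

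The topoisomerase Top1, which relaxes the DNA ahead of the fork, was called in no depletion. It read 6.83 to 8.91 in Mock (median 7.94), 8.38, 7.68 and 8.03 after dKDM2, 8.73, 8.55 and 7.14 after dRING, 7.48, 7.55 and 6.18 after PC, 8.25, 7.27 and 6.31 after PH depletion and 8.19, 8.17 and 6.53 on the arrays labelled PSC. The groups overlapped Mock, and the changes ran from -0.97 after PC to 0.10 after dRING depletion. With the replicate block and Mock replicates 1 to 3 the PC change was -1.38 and was called (limma adjusted p = 0.0455). Those controls without the block did not call it. On the deposited values Top1 was called lower after PH depletion (-1.60, limma adjusted p = 0.0109).

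RnrL, the large subunit of ribonucleotide reductase, read 8.65 to 11.51 in Mock (median 10.24). After PH depletion it read 6.59, 8.27 and 7.87, below all Mock arrays, and fell by 2.57 (5.93-fold, SE 0.60, limma adjusted p = 0.00163). With the controls as covariates the PH value changed sign (1.31), as did that after dKDM2 depletion (1.71). The dKDM2 arrays read 8.55, 8.69 and 9.46 and gave -1.24, which was not called (limma adjusted p = 0.127). That dKDM2 change was called lower on the deposited values (-1.83, limma adjusted p = 0.0292), with centring (-1.07, limma adjusted p = 0.0475) and with Mock replicates 1 to 3 as the only controls (-2.33, limma adjusted p = 0.0174), whereas the covariates made it a call in the other direction (limma adjusted p = 0.0393). The arrays of dRING (11.19, 11.41, 9.76), PC (10.79, 10.78, 9.00) and those labelled PSC (10.37, 10.40, 8.73) overlapped Mock, with changes of 0.64, 0.05 and -0.31.

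The dKDM2 and PH comparisons share the Mock arrays, so the arrays of these depletions were also compared directly. Of the genes that fell after PH depletion, 7 were not called after dKDM2 depletion (Mcm2, Mcm3, dpa, Mcm10, DNAlig1, PolA2 and RnrL). In the direct comparison only Cdc6 and Prim2 differed, both lower after PH depletion, by 1.74 (SE 0.42, limma adjusted p = 0.025) and 1.59 (SE 0.42, limma adjusted p = 0.0394), where 1.23% of all genes were lower and 1.22% higher. At an unadjusted p under 0.05, 12 genes were lower and 0 higher after PH depletion. Among the 7 genes, the smallest limma adjusted p in the direct comparison was 0.159, for DNAlig1 (-1.81, SE 0.63). Same-numbered dKDM2 and PH arrays deviated together, and with the replicate block 7 genes were lower after PH depletion and 0 higher. These were Cdc6, dup and PolE2 and the helicase genes Mcm2, Mcm3, dpa and Mcm6, while Prim2 was no longer called. The shares of all genes above belong to the adjusted fit without the block. The unadjusted and block counts have no such share beside them and do not show whether the members stand out. Of the 7 genes, the block thus called Mcm2 (-1.38, limma adjusted p = 0.048), Mcm3 (-1.17, limma adjusted p = 0.00836) and dpa (-0.56, limma adjusted p = 0.0271), and a difference from dKDM2 was shown in neither fit for Mcm10, DNAlig1, PolA2 and RnrL.

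The depletions of dKDM2 and PH differed from the other 3 in many members, most of which were lower after dKDM2 or PH. After PH depletion 18 genes were lower and 1 higher than after dRING depletion (8.48% and 8.11% of all genes), and 17 were lower and 1 higher than after PC depletion (8.31% and 7.8%). Compared with PH depletion, 16 genes were higher and 0 lower on the arrays labelled PSC (9.14% and 8.29%), with 3 lower at an unadjusted p under 0.05 by limma. That unadjusted count has no share of all genes beside it. The single higher gene in the PH comparisons was Psf3. Against dKDM2, 13 genes were higher and 1 lower after dRING (6.96% and 6.73%), 8 higher and 1 lower after PC (6.79% and 6.33%), and 7 higher and 2 lower on the arrays labelled PSC (8.44% and 7.92%). The gene that was lower than after dKDM2 depletion was Cdc6 in all 3, joined by dpa in the last.

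Few members, and few of all genes, were called between the other 3 groups. With 3 arrays per group this does not show that the members were alike. Between dRING and PC 0 members were higher or lower by limma (0.154% and 0.0685% of all genes were higher and lower after PC), and between PC and the arrays labelled PSC 0 were (2.42% and 1.51%), where the replicate block called Cdc6 and RfC3, both lower on the latter. At an unadjusted p under 0.05 the counts were 0 higher and 0 lower between dRING and PC, and 0 higher and 3 lower on the arrays labelled PSC than after PC depletion. RfC3 and RfC38 were lower on the arrays labelled PSC than after dRING depletion, with differences of -0.89 (SE 0.25, limma adjusted p = 0.0438) and -0.66 (SE 0.18, limma adjusted p = 0.035). These were 2 lower and 0 higher genes, against 1.17% and 2.19% of all genes, with 0 higher at an unadjusted p under 0.05, and the replicate block called 5 lower. The unadjusted and block counts have no share of all genes beside them. Fitted with the controls as covariates, the 10 comparisons between depletions gave 43 calls in all, against 89 without. These sums have no share of all genes beside them either.

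Genes whose 3 depleted arrays all lay outside the 14 Mock arrays were counted as a second measure. After PH depletion 16 members lay below all Mock arrays (12.1% of all genes) and 1 above (9.46%), and after dKDM2 depletion 12 lay below (9.96%) and 2 above (10% of all genes). On the arrays labelled PSC 5 lay below (4.18%) and 0 above (5.43%), after PC depletion 3 below (1.53%) and 0 above (2.71%), and after dRING depletion 0 below (1.46%) and 2 above (2.18%), Cdc6 and Mcm10.

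Since subunits of 1 complex were called differently, 6 pairs were compared within each array, chosen after their values were seen and given as a description. A shift that is equal for all genes of an array cancels in the difference between 2 genes on it, but quantile normalization is not such a shift. PolE2 minus PolE1 was 1.15 ± 0.80 in Mock (SD, n = 14), -1.23 ± 0.37 after dKDM2 and -1.44 ± 0.21 after PH depletion (n = 3 each), and all 6 depleted arrays lay below Mock. RfC3 minus Gnf1 shifted from Mock by -2.63 and -2.23, Psf2 minus Psf3 by -3.26 and -4.90, Orc4 minus Orc1 by -3.92 and -3.91, and Mcm5 minus Mcm6 by -2.04 and -2.94. In each of these pairs every dKDM2 and PH array lay below every Mock array. Prim1 minus PolA1 shifted by -4.25 after dKDM2 depletion, with all arrays below Mock, and by -3.20 after PH depletion, with overlap. On the deposited values the shifts after dKDM2 and PH depletion ran from -2.28 to -4.19. After PH depletion those of Prim1 minus PolA1 (-2.42), Psf2 minus Psf3 (-4.19), Orc4 minus Orc1 (-3.28) and Mcm5 minus Mcm6 (-2.82) were nearer 0 there. Those of PolE2 minus PolE1 (-2.63) and RfC3 minus Gnf1 (-2.35) were further from 0. In the other 3 groups the arrays overlapped Mock, except for Mcm5 minus Mcm6 after PC depletion (-0.52) and Prim1 minus PolA1 on the arrays labelled PSC (-2.93).

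**Figure D4:**
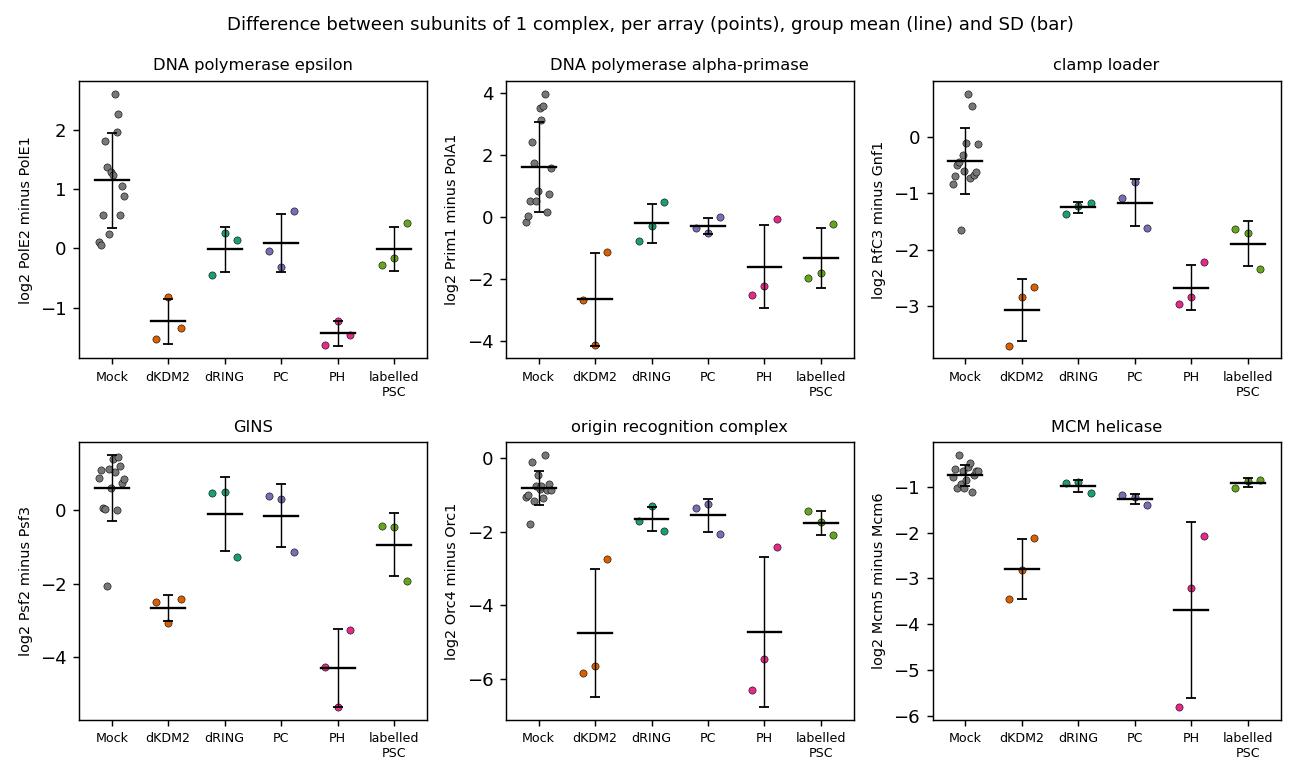
Difference in log2 signal between 2 subunits of the same complex (y axis) on each of the 29 arrays, by group (x axis), with the mean as a line and the SD as a bar. The dKDM2 and PH points lie below all Mock points in every panel except polymerase alpha-primase, where 1 PH array (-0.06) reaches the Mock range (from -0.15).

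The members that fell were also the shorter genes. The genomic span with introns had a median of 1440 bases over the 15 genes that fell after dKDM2 depletion, 2884 over the 15 not called and 2920.5 over the 4 that rose. After PH depletion the medians were 1749 over the 22 that fell, 3370 over the 10 not called and 2535 over the 2 that rose. After dKDM2 depletion all genes showed a similar order, with medians of 1504 for those that fell, 2180 for those not called and 4520 for those that rose. After PH depletion these medians over all genes were 1658, 2170 and 3915. There the members that rose and those not called stood in the other order. Across the 34 members, Spearman's correlation between span and log2 fold change was 0.67 for dKDM2, 0.46 for PH, 0.71 for dRING, 0.59 for PC and 0.63 for the arrays labelled PSC. Across the 5510 genes with a span and a Mock mean of at least 4 it was 0.48 to 0.56. These are correlations across genes of the same arrays, which are not independent replicates, and the part of array quality in them was not tested. Prim1, with a span of 4091 bases, was the longest member that fell.

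**Figure D5:**
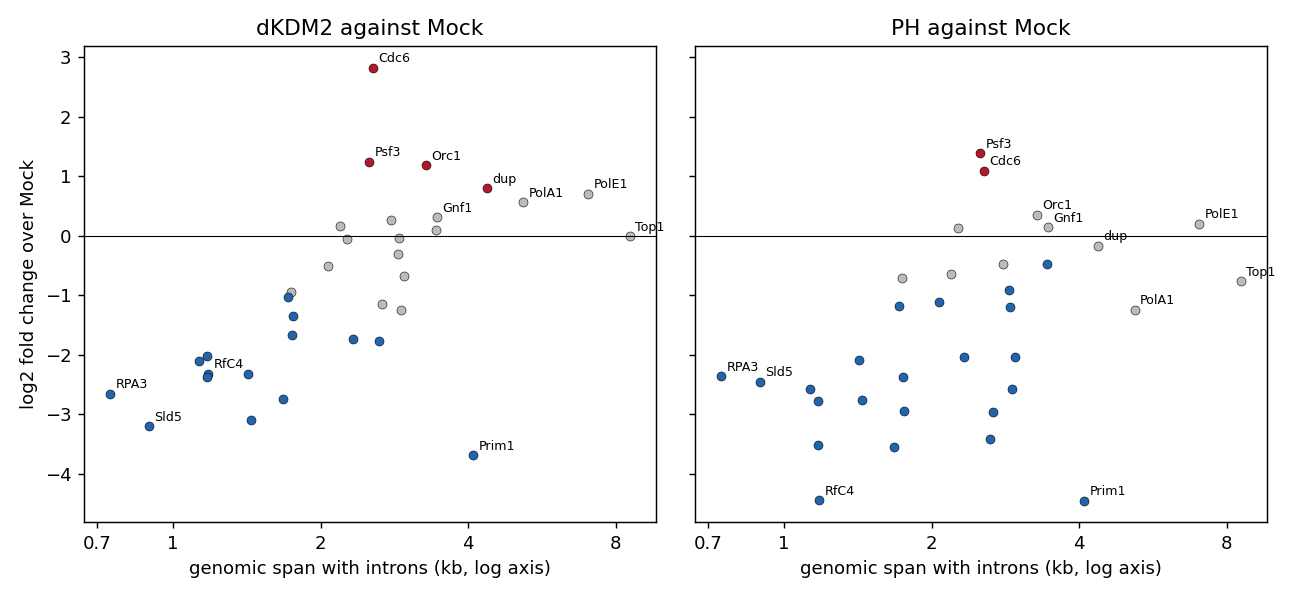
Log2 fold change over Mock (y axis) against genomic span with introns (kb, log x axis) of the 34 replication genes, for dKDM2 (left) and PH (right). Blue points fell, red points rose and grey points were not called, and the blue points lie mainly at short spans (median 1440 bases for dKDM2 and 1749 for PH), with Prim1 an exception at 4091.

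Other genes of the same processes, on lists chosen with earlier results of these data known, were counted in the same fit. The share of all genes that rose and fell was 18.4% and 14.7% after dKDM2, 19.6% and 15.4% after PH, 3.32% and 1.22% after PC and 2.04% and 0.736% after dRING depletion, and 9.99% and 6.51% on the arrays labelled PSC. Of 16 further genes of the replication machinery, 6 rose and 5 fell after dKDM2, 3 rose and 5 fell after PH depletion, 2 rose and 2 fell on the arrays labelled PSC, 1 rose and 2 fell after PC, and 1 rose and 0 fell after dRING depletion. The 3 rises of 16 after PH depletion are no larger a share than that of all genes. The gene chif, the fly counterpart of the Cdc7 activator Dbf4, rose in all 5 comparisons, most after PH depletion (log2 fold change 2.62). It rose by 2.17 both for dKDM2 and for the arrays labelled PSC, by 1.39 for dRING and by 1.44 for PC. Its kinase partner Cdc7 rose by 2.50 after dKDM2 depletion. The small polymerase epsilon subunit PolE4 fell by 3.03 after dKDM2 and 2.34 after PH depletion, and Psf1, the remaining GINS gene, fell by 2.23 and 2.46. Psf1 thus went with Psf2 and Sld5, and Psf3 was the only GINS gene to rise.

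Among 10 genes of chromatin assembly and nucleotide supply, 2 rose and 5 fell after dKDM2 depletion (18.4% and 14.7% of all genes), and 1 rose and 7 fell after PH depletion (19.6% and 15.4%). On the arrays labelled PSC 0 rose and 3 fell (9.99% and 6.51%), after PC depletion 0 rose and 1 fell (3.32% and 1.22%), and after dRING depletion 0 were called. Thymidylate synthase (Ts) had log2 fold changes of -3.08 after dKDM2 and -2.64 after PH depletion, and dUTPase, which removes dUTP, of -2.77 and -2.94. Both also fell on the arrays labelled PSC (-1.19 and -1.27). Caf1-55, a histone-binding protein of several chromatin complexes, fell by 1.82 and 2.23 after dKDM2 and PH depletion.

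Of 12 regulators tied to E2F and DREF, 5 rose and 4 fell after dKDM2 depletion (18.4% and 14.7% of all genes), and 3 rose and 3 fell after PH depletion (19.6% and 15.4%). On the arrays labelled PSC 2 rose and 1 fell (9.99% and 6.51%), and 0 were called after dRING or PC depletion. CycE, the cyclin that drives entry into S phase, rose by 1.31 for dKDM2, by 1.81 for PH and by 1.34 for the arrays labelled PSC. The repressive E2F protein E2f2 fell by 1.25 and 1.78 after dKDM2 and PH depletion. Of 3 neuron markers tested, elav rose by 2.36 after dKDM2 and by 2.84 after PH depletion, and nSyb and brp lay near the floor in Mock (2.31 and 2.40). Of 3 germline markers, bam and aub fell after dKDM2 (-2.20 and -2.22) and PH depletion (-3.04 and -2.38), and vas lay at the floor on nearly all Mock arrays. The muscle and fat body markers tested lay at or near the floor in every group. The part of such changes in the replication genes was not tested.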

How the data were processed

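The deposited values are log2 signals, 1 per probe set and array; the submitters' processing notes name RMA and GCRMA without version, order or role. From these, 183 control probe sets were left out, arrays were quantile normalized, and for each of 11982 genes the brightest probe set naming it alone was kept. Names and spans came from RefSeq (Release 6 plus ISO1 MT). Of these genes 305 lay at the floor on all arrays, and 11677 were tested in limma 3.58.1 (R 4.3.3) with 6 group means over 29 arrays, eBayes with an intensity trend, two-sided tests and Benjamini-Hochberg adjustment over all genes, called under 0.05. The number of arrays limits the precision. A step on simulated data checked the fit.

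Members and lists were chosen with earlier results of these data known. Full values are given for the 2 largest rises and falls per depletion, for the member with the largest moderated t per step, and, beyond that rule, for a few members named after their values were seen (Orc4, Orc1, dup, Mcm5, Prim2, PCNA and DNAlig1 among them). From the other lists, up to 4 called genes with the largest change may be named.

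Whether equal replicate numbers pair arrays was tested over 5490 genes, as the correlation of deviations from the mean of each group. All 3 correlations exceeded 0.1 in all 6 pairs among Mock, dRING, PC and PSC (0.617 to 0.923) and between dKDM2 and PH (0.146 to 0.598), but not between Mock and dKDM2 (-0.110 to 0.061) or PH (0.052 to 0.152), nor between dKDM2 or PH and the other 3 depletions. The block is therefore given beside results only for the paired groups. Alternatives were the deposited values, median centring, the mean over probe sets, a filter at a mean of 4, covariates, no intensity trend and leaving out each array. Others were Mock replicates 1 to 3 as the only controls, and the replicate block with those same Mock arrays. The mean over probe sets leaves the values of the members as they are, since each has 1 probe set.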

Additional observations from a re-analysis of the deposited data

Results flagged for a closer look

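Results are listed here where the direct test between 2 depletions, which does not use the Mock arrays, found members that differ (limma adjusted p under 0.05). The number of members called was 14 of 34 between dRING and dKDM2 (13.7% of all genes), 9 between PC and dKDM2 (13.1%), 2 between PH and dKDM2 (2.46%), 9 between the arrays labelled PSC and dKDM2 (16.4%), 19 between PH and dRING (16.6%), 2 between the arrays labelled PSC and dRING (3.37%), 18 between PH and PC (16.1%), and 16 between the arrays labelled PSC and PH (17.4%).

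Among the members called in each comparison, the largest difference was in 1 of 5 genes. The primase subunit Prim1 was 2.67 higher after dRING than after dKDM2 depletion on the log2 scale, and the flap endonuclease Fen1 was 2.51 higher after PC than after dKDM2 depletion. The loading factor Cdc6 gave a difference of -1.74 for PH minus dKDM2 and of -2.69 for the arrays labelled PSC minus dKDM2. The clamp loader gene RfC4 gave -3.998 for PH minus dRING, -3.85 for PH minus PC and 3.66 for the arrays labelled PSC minus PH. RfC3 gave -0.89 for the arrays labelled PSC minus dRING. The poly-A spike level separates dKDM2 and PH from the other groups, and its part in these differences was not tested beyond the fit with covariates.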

How the results depend on the processing

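Leaving out 1 array at a time gave, for dKDM2, 2 to 4 rises, 14 to 16 falls and a member median of -1.05 to -0.70; for dRING 0 to 1 rises, 0 to 1 falls and -0.11 to 0.01; for PC 0 to 1, 1 to 3 and -0.35 to -0.28; for PH 1 to 2, 20 to 22 and -1.73 to -1.54; and for the arrays labelled PSC 0 to 0, 5 to 9 and -0.55 to -0.35. Calls between depletions summed to 77 to 94 (89 with all arrays). Without dKDM2 replicate 1 there were 2 rises, and without PSC replicate 1 or 2 there were 5 falls. The counts of these leave-out fits have no share of all genes beside them and do not show whether the members stand out.

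On the deposited values the rises were 1 (dKDM2), 0 (dRING) and 0 (PH), where 16.3%, 1.12% and 19.9% of all genes rose. The medians there were -1.72 (dKDM2) and -2.48 (PH), and dpa for dKDM2 (-0.45) and Cdc45 for PH (-0.87) were reversed and called lower. Median centring gave 0 rises for dRING (0.728% of all genes) and 1 fall for PC (0.805%). It raised the share of rises among all calls from 55.5% to 83.5% for dKDM2 and from 56.0% to 85.0% for PH. The filter on dim genes gave 1 fall for dRING (3.57% of the genes kept) and 1 rise for PC (7.73%), and no intensity trend gave 1 rise for PC (3.32% of all genes). With Mock 1 to 3 and no block, the rises were 2 (dKDM2), 0 (dRING) and 1 (PH), where 11.5%, 0.728% and 12.8% of all genes rose. The falls were 0 (PC) and 4 (PSC), where 0.788% and 3.74% of all genes fell. The medians were -1.11 (dKDM2), -0.24 (dRING) and -0.65 (PSC). The replicate block on the same arrays left these 3 medians as they were. It gave 2 rises for dKDM2 (13.8% of all genes), 1 fall for PC (1.27%), 5 falls for PSC (5.72%) and 25 falls for PH (16.3%). Mock and the dKDM2 or PH arrays share only a number. There the block ended the calls of Orc1, dup, RfC4 and Prim2 for dKDM2 and of Sld5 (-2.21, limma adjusted p = 0.0651) and PolA2 (-0.83) for PH, called Mcm2 (-1.80), DNAlig1 (-1.98) and RnrL (-2.33) lower for dKDM2, and called dup (-0.68), Mcm6 (-1.12), Top1 (-1.18) and PolA1 (-2.59) lower for PH. It reversed PolE1 for PH (-0.68, called lower), as Mock 1 to 3 without the block did. The fit with spike and hybridization covariates gave medians of -0.17 (dKDM2), -0.98 (PH) and -0.57 (PSC) and 43 calls between depletions. It gave 1 fall for dRING (1.11% of all genes), 1 rise and 5 falls for PC (4.45% and 1.59%) and 11 falls for PH (9.62%). It reversed Mcm5 (0.17), RfC4 (0.17) and RnrL (1.71) for dKDM2 and Mcm2 (0.81), PolA1 (2.95) and RnrL (1.31) for PH. Leaving out replicate 3 of every group, added after the data were seen, gave 0 rises for dRING, a count without a share of all genes beside it. The causes were not tested.

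Calls kept under every setting were 11 of 19 for dKDM2, 10 of 24 for PH, 2 of 8 on the arrays labelled PSC, 0 of 2 for PC and 0 of 1 for dRING.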
